A study of Homo sapiens with 19 samples.

Results

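Hepcidin, encoded by HAMP, and 6 further genes of cellular iron handling (TFRC, SLC40A1, SLC11A1, SLC11A2, FTH1 and FTL) were followed across time and vit C treatment in macrophage-like THP-1 cells. The genes were taken by their names on the array, where the 7 names have 17 probes among 50238 probes and 31033 gene names. They were chosen by their normalized levels across the 8 groups described here, with earlier results of these arrays known. Their levels and fold changes are therefore given as a description, without a test.

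THP-1 is 1 human monocytic leukaemia line, so replicates are separate flasks of the same line and carry no variation between people. All flasks, the untreated (UT) ones included, were differentiated with 30 nM phorbol myristate acetate (PMA) and rested in fresh medium, after which the treated flasks received 0.1 mM vit C. RNA was taken 8, 24, 48 and 96 h later, and samples of poorer RNA integrity were set aside before hybridization. Agilent one-colour arrays were made of UT cells at 8 h (2 arrays), 24 h (3), 48 h (2) and 96 h (3), and of vit C-treated cells at 8 h (3), 24 h (2), 48 h (2) and 96 h (2). A level is the log2 of the processed signal minus the 75th percentile of its array, so 0 is the signal of that percentile and a difference of 1 is a doubling. Levels are compared between arrays for the same probe only. In such RNA from whole flasks, fewer cells of a type and less of an RNA per cell cannot be told apart.

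Hepcidin is a small peptide hormone, made mainly by the liver and in smaller amounts by macrophages, that binds the iron exporter ferroportin (SLC40A1) and has it degraded, so that iron stays inside the cell. Its transcription is driven by BMP ligands through SMAD proteins and by IL-6 through STAT3. Iron enters cells on transferrin through the transferrin receptor (TFRC) and crosses the endosome membrane through SLC11A2 (DMT1). SLC11A1 (NRAMP1) moves metal ions across the phagosome membrane of macrophages. The heavy (FTH1) and light (FTL) subunits of ferritin store iron. Iron regulatory proteins hold back ferritin translation and stabilise TFRC mRNA when iron is scarce, so the ferritin mRNA levels measured here are not ferritin protein levels.

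The HAMP results rest on 1 probe, which is therefore shown in full, 5′ to 3′ as in the array files:
HAMP probe: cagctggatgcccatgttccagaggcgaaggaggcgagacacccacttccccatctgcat
The 250 bases before the start of HAMP (GRCh38.p14, chr19:35282278-35282527, plus strand, from RefSeq) are shown because the ligands and factors that act on them are also among the genes described further on.
HAMP upstream: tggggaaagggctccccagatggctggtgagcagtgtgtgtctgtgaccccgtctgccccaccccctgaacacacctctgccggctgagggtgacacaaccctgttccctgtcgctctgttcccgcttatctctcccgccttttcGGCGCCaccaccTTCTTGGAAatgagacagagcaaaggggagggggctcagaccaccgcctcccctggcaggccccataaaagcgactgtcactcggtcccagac
Capitals mark the letters GGCGCC, the core of a BMP response element, and TTCNNNGAA, the STAT motif, which lies downstream of it, from 93 to 85 bases before the start. On either strand, GGCGCC is in 19.2% and TTCNNNGAA in 7.66% of the 35116 RefSeq windows. Those windows hold 250 bases before the start and the first 50 transcribed bases, so they are longer than the stretch shown. The motifs do not overlap here. A match is a description of the letters, and binding was not measured.

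Ferritin RNA is harder to assign. All 5 FTH1 probes list non-coding RefSeq accessions beside FTH1 (5 different ones in all), whereas none of the probes of the other 6 genes does. FTH1 values are therefore uncertain as to which copy gave the signal. A pair of probes named FTH1 that overlap but are not identical is shown, with the letters that differ within their 51 shared bases in capitals:
FTH1 probe P111565: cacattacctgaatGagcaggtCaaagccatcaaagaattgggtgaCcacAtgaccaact
FTH1 probe P58337: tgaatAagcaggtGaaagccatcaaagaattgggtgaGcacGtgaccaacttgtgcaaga
They are identical at 47 of the 51 bases (92.2%).
The first transcribed bases of FTL hold the loop letters of an iron responsive element, CAGTGN, to which iron regulatory proteins bind. They are shown in capitals as DNA on the transcript strand (GRCh38.p14, chr19:48965333-48965358, from RefSeq), and 6.36% of the windows have CAGTGN in their first 50 transcribed bases:
FTL loop: gtctcttgcttcaaCAGTGTttggac

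Between 57.5% and 72.8% of probes per array were well above background by the scanner software, and no spot was saturated. The highest shares, 69.8% and 72.8%, were those of the vit C arrays of 96 h, against 60.0% to 64.8% on the UT arrays of 96 h. Of 10 monocyte and macrophage markers, 9 were well above background on all 19 arrays and the other, LYZ, on 18. Of 8 hepatocyte markers, ALB alone was on all arrays and 4 (APOB, FGB, FGG and CYP3A4) on none, and of 5 erythroid markers EPOR was on all and HBB on none. Slide 1 held 8 UT arrays, the third slide held 1 vit C array of 48 h, the fourth held both vit C arrays of 96 h, and slide 2 held 6 vit C arrays with 2 UT arrays of 96 h. UT 96 h replicate 3 stood apart, with a Pearson's r down to 0.962 to its group against at least 0.984 within every other group. HAMP, TFRC, SLC11A1 and FTH1 values at 96 h are given with and without it.

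With all arrays, HAMP had a larger difference between treated and UT cells at all 4 times than any probe of the 5 other genes for which a fold could be given (SLC40A1 was near background). The order did not hold at 24 h without vit C 24 h replicate 1, where HAMP was -0.97, FTH1 probe P919330 -1.12 and SLC11A1 probe P88690 -1.06, nor at 48 h without vit C 48 h replicate 2, where HAMP was -1.71 and FTL probe P155247 -1.73. Treatment went with less HAMP at 8, 24 and 48 h and with more at 96 h. The HAMP probe was well above background on all 19 arrays. In UT cells its level was 0.66 and 0.47 at 8 h, and 0.51, 0.32 and 0.55 at 24 h. It was -1.34 and -1.39 in UT cells at 48 h, and -1.92, -2.05 and -1.94 at 96 h. UT cells thus held about the same level at 8 and 24 h, where the arrays overlapped, and lower levels at both later times. In vit C-treated cells the HAMP level was -0.50, -0.82 and -0.36 at 8 h, and -0.63 and -0.51 at 24 h. It was -3.07 and -2.96 at 48 h, and -0.23 and -0.43 at 96 h. Treated cells went from a shared level at 8 and 24 h to the lowest level of the series at 48 h, and at 96 h were back within the range of the treated 8 h arrays or above it.

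**Figure D1:**
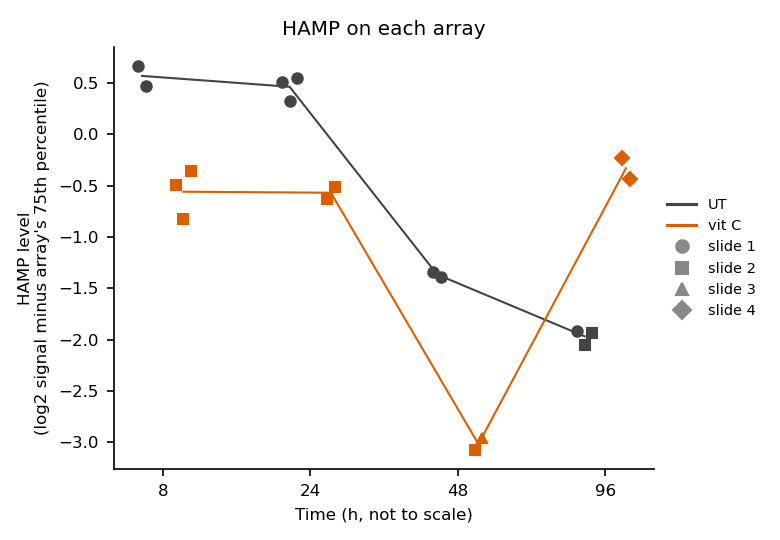
HAMP level (log2 signal minus the 75th percentile of the array, vertical axis) on each of the 19 arrays by time, with lines through the group means, UT in grey and vit C in orange, and the slide shown by the shape of the point. The vit C points lie below the UT points at 8, 24 and 48 h and above them at 96 h, with no overlap at any time.

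At 8 h the mean HAMP level was -0.56 ± 0.24 (SD, n = 3) in treated and 0.57 ± 0.13 (n = 2) in UT cells, a log2 fold change of -1.13 (SE 0.18). At 24 h the means were -0.57 ± 0.08 (n = 2) and 0.46 ± 0.12 (n = 3), a log2 fold change of -1.03 (SE 0.18). The groups did not overlap at either time, and the difference was about 2-fold at both. At 48 h the means were -3.02 ± 0.08 and -1.37 ± 0.04 (n = 2 each), a log2 fold change of -1.65 (SE 0.19) or 3.14-fold lower. At 96 h they were -0.33 ± 0.14 (n = 2) and -1.97 ± 0.07 (n = 3), a log2 fold change of 1.64 (SE 0.18) or 3.11-fold higher with treatment. Every treated array was below every UT array of its time at 8, 24 and 48 h, and above them at 96 h. Without UT 96 h replicate 3 the value at 96 h was 1.65. Within UT cells the 96 h arrays were lower than the 8 h arrays by a log2 fold change of -2.54 (SE 0.18), or 5.80-fold. With normexp background correction, an alternative treatment of the low signals, the value at 48 h shrank to -0.93, where the processed signals of the treated arrays were 44.0 and 45.0.

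Ordered by mean, the HAMP levels ran from UT 8 h and UT 24 h (92.9% of UT 8 h) through vit C 96 h (53.6%), vit C 8 h (45.8%) and vit C 24 h (45.5%) to UT 48 h (26.2%), UT 96 h (17.2%) and vit C 48 h (8.33%). The span from the highest to the lowest group was 3.59 on the log2 scale. Among neighbours in that order, UT 8 h and UT 24 h overlapped, as did vit C 96 h with vit C 8 h, and vit C 8 h with vit C 24 h. The other neighbours did not overlap. The widest range within a group was 0.47, among the treated arrays of 8 h.

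By the criterion applied to all genes (a limma q, adjusted by Benjamini-Hochberg, of at most 0.05 with a change of 1 log2 unit or more either way), 1 of the 7 genes, HAMP, was called at each of the 4 times. Of all genes tested, the called share was 0.549% at 8 h, then 1.65% (24 h), 3.64% (48 h) and 12.8% (96 h). For UT cells at 96 h against 8 h, 2 of the 7 were called (HAMP and SLC11A1), beside 16.1% of all genes tested. A gene with probes of opposing sign was not counted, which took out SLC11A1 and SLC11A2 at 8 h, SLC11A1 and FTH1 at 24 h, SLC11A2 at 48 h, and FTH1 at 96 h and in the UT comparison. Since the levels chose the genes, nothing is read from these counts. The HAMP call at 8 h was lost without UT 8 h replicate 1 or 2 or vit C 8 h replicate 1 or 2 (log2 fold changes from -1.22 to -0.996), and at 24 h without UT 24 h replicate 3 or either vit C array (-1.09 to -0.97) and with the replicate block (-0.98). With normexp correction, and with the slide as a term, HAMP was not called at 8, 24 or 48 h.

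Slide went with treatment at 8, 24 and 48 h, where all UT arrays lay on slide 1 and all treated arrays on slide 2 or, for 1 array of 48 h, slide 3, so no difference of the same time can be taken within a slide. When slide was added to the fit, which is then informed by the UT 96 h arrays on both slides, the HAMP log2 fold change was -1.05 (SE 0.31) at 8 h, -0.96 (SE 0.31) at 24 h and -1.63 (SE 0.35) at 48 h, and -2.49 (SE 0.25) for UT cells at 96 h against 8 h. Directly, HAMP on the UT 96 h arrays of slide 2 was 0.08 below that of slide 1, a log2 difference of -0.08, and the vit C 48 h array of slide 3 was 0.11 above that of slide 2. At 96 h treatment, slide and scan day cannot be told apart.

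The summed level of the hepatocyte markers separated by treatment too, while that of the erythroid markers did not. Of the 8 hepatocyte markers ALB had the highest median level (-2.48), and 4 were well above background on no array. The log2 of the summed linear levels of the hepatocyte markers was -1.34 to -1.13 on the UT arrays of 96 h and -1.82 to -1.72 on the treated ones, and it was likewise lower in treated cells at 8, 24 and 48 h without overlap, although at 8 h the nearest arrays were both at -1.61. HAMP was lower with treatment at those 3 times and higher at 96 h. The erythroid marker sum was between -1.90 and -1.43 at 8 and 24 h and between -0.84 and -0.15 at 48 and 96 h over both treatments. The macrophage marker sum stayed between 8.30 and 8.89, but it rests mostly on the brightest marker, CSF1R (7.92 to 8.66). Single markers varied more, such as CD14, from 0.42 to 5.76. The part of these markers in the HAMP levels was not tested.

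Uptake genes moved little. TFRC was well above background on all arrays, with levels from 3.85 to 4.80. In UT cells it was 4.42 and 4.42 at 8 h, 4.64, 4.68 and 4.68 at 24 h, 4.50 and 4.57 at 48 h, and 3.98, 3.85 and 4.80 at 96 h. In treated cells it was 4.36, 4.23 and 4.17 at 8 h, 4.40 and 4.48 at 24 h, 4.40 and 4.23 at 48 h, and 4.04 and 4.19 at 96 h. Treated arrays lay below UT arrays without overlap at 8, 24 and 48 h, by small log2 fold changes of -0.16 (SE 0.23), -0.23 (SE 0.23) and -0.22 (SE 0.25). At 96 h the log2 fold change of TFRC was -0.10 (SE 0.23) with UT 96 h replicate 3, which held the highest TFRC level of the series, and 0.20 without it, and it was 0.07 with quantile normalization. Over time in UT cells it was -0.21 with and -0.50 without that array. With the slide as a term the values at 8, 24 and 48 h were -0.51, -0.57 and -0.48.

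SLC11A2, the transporter that carries iron out of the endosome, has 3 probes that went different ways (Pearson's r between them over the 19 arrays from 0.003 to 0.55). On its brightest probe the levels were 1.52 and 1.36 in UT and 1.51, 1.35 and 1.36 in treated cells at 8 h, and 1.54, 1.83 and 1.95 in UT and 1.84 and 1.76 in treated cells at 24 h. They were 1.41 and 1.40 in UT and 1.66 and 1.30 in treated cells at 48 h, and 1.35, 0.64 and 1.31 in UT and 1.13 and 1.14 in treated cells at 96 h. Treated and UT arrays overlapped at all 4 times, with log2 fold changes between -0.04 and 0.08. The other probes gave 0.43 and -0.66 at 8 h and 0.38 and -0.61 at 48 h, so no direction can be given for SLC11A2 at those times. With the slide as a term the brightest probe gave 0.33, 0.40 and 0.63 at 8, 24 and 48 h.

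**Figure D2:**
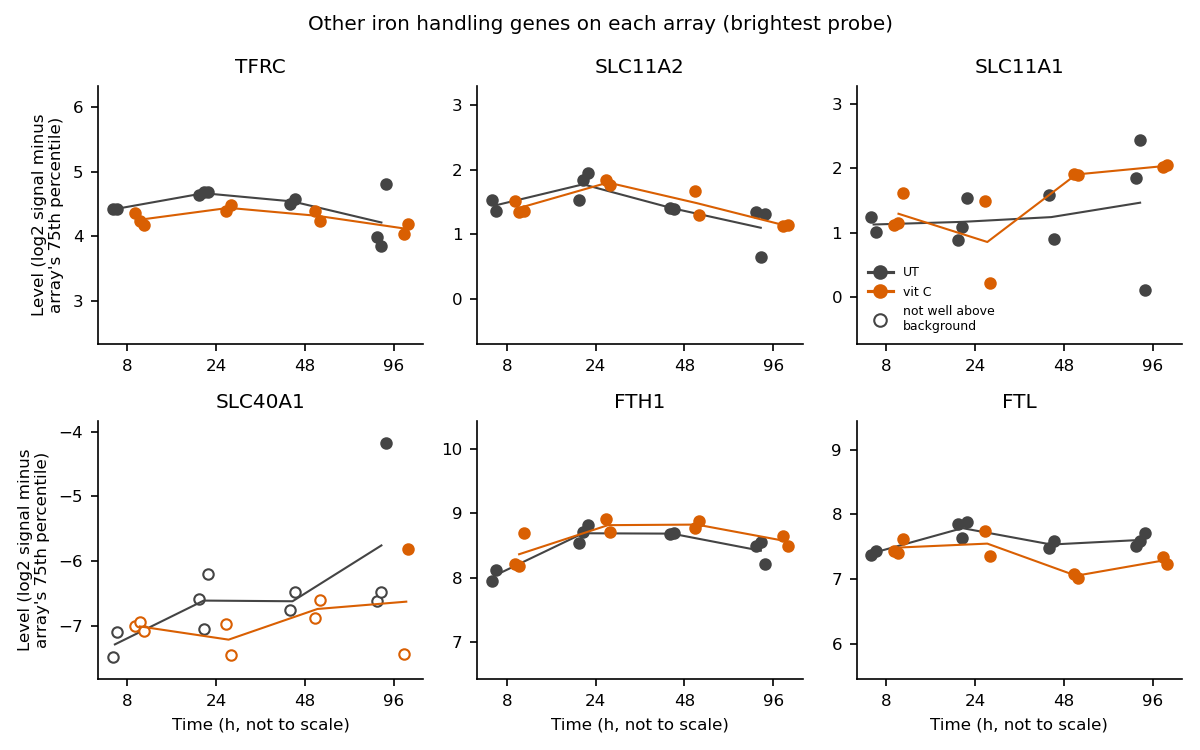
Level (log2 signal minus the 75th percentile of the array) of the brightest probe of 6 genes on each array by time, UT in grey and vit C in orange, with lines through the group means and open points for arrays where the probe was not well above background. Each panel spans 4 log2 units. UT 96 h replicate 3 is the highest UT point of TFRC and SLC40A1 and the lowest of SLC11A1 at 96 h.

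SLC11A1, the phagosomal metal transporter of macrophages, varied widely between replicates, with a residual SD of 0.63 on its brightest probe, against 0.14 for HAMP and 0.23 for TFRC. Its levels in UT cells were 1.25 and 1.01 at 8 h, 0.88, 1.09 and 1.53 at 24 h, 1.58 and 0.90 at 48 h, and 1.85, 2.44 and 0.11 at 96 h. In treated cells they were 1.12, 1.14 and 1.62 at 8 h, 1.49 and 0.22 at 24 h, 1.91 and 1.89 at 48 h, and 2.01 and 2.05 at 96 h. The treated arrays lay above the UT arrays without overlap at 48 h alone, by a log2 fold change of 0.66 (SE 0.58), while the other times overlapped. That value was 0.32 without UT 48 h replicate 2, 1.00 without UT 48 h replicate 1 and 1.25 with the slide as a term. At 96 h it was 0.57 (SE 0.53) with UT 96 h replicate 3 and -0.11 without it. The 3 SLC11A1 probes agreed better than those of SLC11A2, with r from 0.78 to 0.98.

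Over time in UT cells, SLC11A1 was higher at 96 h than at 8 h on all 3 probes. The log2 fold changes were 0.34 (SE 0.53), 0.31 (SE 0.51) and 1.08 (SE 0.32), and the last of these led to the call given above. Without UT 96 h replicate 3 the change on the brightest probe was 1.02, and without UT 96 h replicate 2 it was -0.15, with -0.18 on probe P88690, so the direction on both rests on that array. On the probe that led to the call, the value was under 1 without UT 8 h replicate 2 (0.97), UT 96 h replicate 1 (0.998) or UT 96 h replicate 2 (0.82).

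The export gene was hardly measurable. The SLC40A1 probe, for ferroportin, was not well above background on 17 of 19 arrays, where its processed signals were between 2.94 and 5.02. The exceptions were UT 96 h replicate 3, with a signal of 34.6, and vit C 96 h replicate 2, with 16.0. The other arrays of those groups were not well above background, so no fold is given for SLC40A1 at any time.

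All ferritin probes were well above background on every array, and none was saturated. FTH1 on its brightest probe was 7.95 and 8.11 in UT cells at 8 h, 8.54, 8.71 and 8.82 at 24 h, 8.68 and 8.69 at 48 h, and 8.49, 8.56 and 8.21 at 96 h. In treated cells it was 8.22, 8.18 and 8.70 at 8 h, 8.92 and 8.71 at 24 h, 8.77 and 8.88 at 48 h, and 8.65 and 8.49 at 96 h. Treated means were above UT means at all 4 times, by log2 fold changes of 0.33 (SE 0.20), 0.13 (SE 0.20), 0.14 (SE 0.22) and 0.15 (SE 0.20), and the arrays overlapped at 24 and 96 h. At 48 h the sign turned with quantile normalization (-0.03), and at 96 h the value was 0.05 without UT 96 h replicate 3 and -0.01 for the mean of the probes. All 5 probes had higher treated means at 8 and 48 h, but probe P342064 was -0.08 at 8 h without UT 8 h replicate 1, -0.05 without vit C 8 h replicate 3 and -0.47 at 48 h without vit C 48 h replicate 2. Probe P919330 was -0.02 at 48 h without UT 48 h replicate 2 and -0.07 without vit C 48 h replicate 1. At 24 h probe P919330 went the other way (-0.66, SE 0.26, but -0.21 without vit C 24 h replicate 2 and -1.12 without replicate 1), as did probes P111565 (-0.39) and P342064 (-0.25) at 96 h. Those turned to 0.15 without vit C 96 h replicate 2 and to 0.11 without UT 96 h replicate 2. The r between the 5 probes was from 0.05 to 0.69.

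FTL was lower in treated cells at the later times on each of its 3 probes. On its brightest probe FTL was 7.38 and 7.43 in UT and 7.44, 7.41 and 7.62 in treated cells at 8 h, and 7.85, 7.64 and 7.88 in UT and 7.74 and 7.36 in treated cells at 24 h. It was 7.48 and 7.59 in UT and 7.08 and 7.02 in treated cells at 48 h, and 7.51, 7.58 and 7.71 in UT and 7.34 and 7.24 in treated cells at 96 h. The groups overlapped at 8 and 24 h and separated at 48 and 96 h. The log2 fold changes at 48 h were -0.48 (SE 0.19), -1.16 (SE 0.31) and -0.65 (SE 0.24) on the 3 probes, and at 96 h -0.31 (SE 0.17), -0.36 (SE 0.29) and -0.59 (SE 0.22). With quantile normalization the brightest FTL probe gave -0.11 at 96 h. The 3 FTL probes ran together, with r from 0.80 to 0.89. The value of -1.16 at 48 h comes from probe P155247, on which vit C 48 h replicate 1 was 5.52 and replicate 2 was 6.66. It was -0.59 without replicate 1 and -1.73 without replicate 2.

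**Figure D3:**
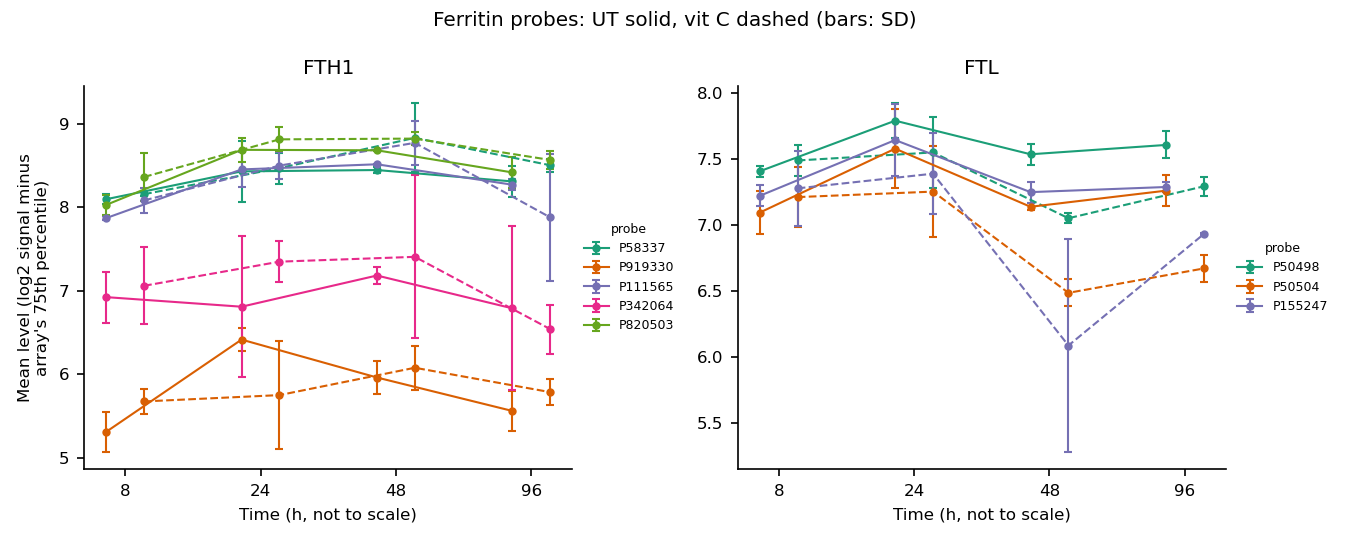
Mean level (log2 signal minus the 75th percentile of the array) of each of the 5 FTH1 and 3 FTL probes by time, with SD over 2 or 3 arrays as bars, UT as solid and vit C as dashed lines. The FTL probes separate by treatment at 48 and 96 h, with vit C lower on all 3, while the FTH1 probes do not run together.

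**Figure D4:**
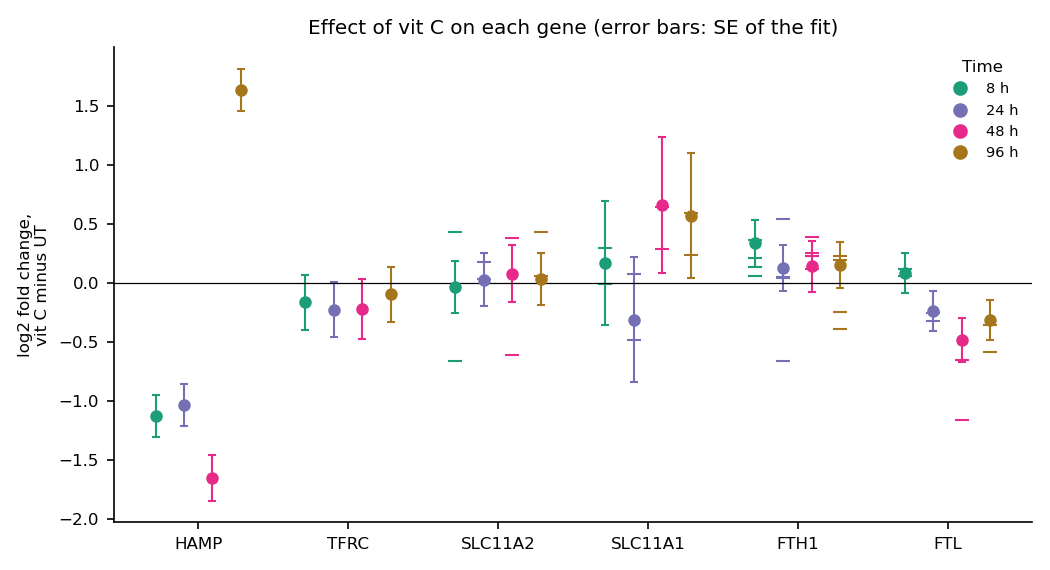
log2 fold change of vit C-treated over UT cells (vertical axis) at each time for 6 genes, with the brightest probe as a point with its SE and further probes as dashes. SLC40A1 is left out because it was near background. HAMP lies below 0 at 8, 24 and 48 h and above 0 at 96 h, and the points of the other genes lie between -0.48 and 0.66.

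Across the 19 arrays, which share groups and slides, HAMP did not run closely with any of the other 6 genes, with r from -0.32 (SLC40A1, near background) to 0.48 (FTL). The closest pairs among the 7 were TFRC with SLC11A1 at r -0.74 and TFRC with SLC11A2 at r 0.68. The genes whose pattern was most like that of HAMP over the 19 arrays were PITPNB (r 0.93), HsapiAL832099 (0.91), RPS23 (0.91), WDR1 (0.90) and SNORA80 (0.90). PITPNB, a phosphatidylinositol transfer protein, went from 1.02 in UT to 0.17 in treated cells at 48 h and from 0.34 to 0.90 at 96 h. The genes most like TFRC were LHX2 and RPS6KA3 (both r 0.90), and those most like SLC11A1 were AZI1 (0.92) and C21orf30 (0.91). C18orf8 ran with SLC11A2 at r 0.87. The genes most like FTH1 were GPR157 (0.87) and LOC202051 (0.85), for FTL ARL16 and NDUFV3 (both 0.86), and for SLC40A1, near background, HsapiAL117536 (0.87) and ZNF426 (0.83). These last fell to 0.59 and 0.47 without UT 96 h replicate 3, so they rest on that array.

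The wider iron pathway was read from 76 further genes in 6 lists, of which 73 are named on the array. These were tested in the fit of all genes, and each list is described by its counts and its median. Few of them were called for vit C before 96 h. Of the genes tested, 2 of 57 were called at 8 h (3.51%), 2 of 58 at 24 h (3.45%), 1 of 57 at 48 h (1.75%) and 7 of 57 at 96 h (12.3%), beside the 0.549%, 1.65%, 3.64% and 12.8% of all genes. At 8 h the fallen genes were BMP6, a BMP ligand that drives hepcidin in the liver (log2 fold change -1.02, SE 0.20, q = 0.0458 by limma), and STEAP3, an endosomal ferric reductase (-1.23, SE 0.18, q = 0.0133 by limma). At 24 h the ligand BMP2 (-1.73, SE 0.38, q = 0.0345) and the stress cytokine GDF15 (-1.77, SE 0.33, q = 0.0158) fell by limma. At 48 h SLC25A37 (mitoferrin-1), an iron importer of mitochondria, rose (1.07, SE 0.21, q = 0.0125 by limma). None of these calls stood when single arrays were left out in turn in all fits, and with the slide as a term none was called, with values of -1.04 for BMP6, -1.14 for STEAP3, -0.61 for BMP2 and -0.76 for GDF15. SLC25A37 then had a larger fitted difference (2.81) but a q of 0.0903 by limma, on a second probe that was not well above background in UT cells of 48 h. BMP6 lost its call without any of its 5 arrays (values from -1.10 to -0.93), and BMP2 too (-2.07 to -1.39). STEAP3 lost its call without either UT array of 8 h or vit C 8 h replicate 2 (-1.28 to -1.16 over the 5 fits). GDF15 lost its call without UT 24 h replicate 1 or 3 or either vit C array (-1.94 to -1.60). SLC25A37 lost its call without UT 48 h replicate 2 or either vit C array (1.198 to 2.237 over its 4 fits). Each of those 4 fits leaves 1 array in a group. The SLC25A37 values are above the 1.07 of all arrays, and whether they come from the same probe was not tested.

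At 96 h the regulators of hepcidin had 4 of 17 genes called (23.5%, beside 12.8% of all genes), 3 of them lower with vit C. Most calls over all genes at 96 h were also lower, 2659 of 3375. ID1, a direct target of BMP signalling to SMAD proteins, was 3.17 ± 0.28 (n = 3) in UT and 1.12 ± 0.21 (n = 2) in treated cells, a fall by 2.05 on the log2 scale (q = 6.70e-05 by limma). GDF15 went from 6.77 ± 0.74 to 4.49 ± 0.19, a fall by 2.27 (q = 0.00104 by limma). SMAD5, a SMAD that BMP receptors activate, rose from -1.83 ± 0.31 to -0.74 ± 0.04 (q = 0.0334 by limma). HFE2 was also called, but its probe was not well above background on any array of either group. The inhibitor SMAD7, another BMP target, was 1.06 ± 0.63 in UT and 1.05 ± 0.15 in treated cells and was not called. The median log2 fold change of the list was -0.18, beside -0.15 over all genes. Calls of SMAD5 and HFE2 were lost without UT 96 h replicate 1 or 2 or either vit C array (SMAD5 values from 0.98 to 1.27), while those of ID1 and GDF15 stood in all 5 fits with an array left out. HAMP and ID1 thus went opposite ways at 96 h on the same arrays, where treatment and slide cannot be told apart.

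Of the other lists at 96 h, 1 of 10 uptake and scavenging genes, 1 of 4 export and storage genes and 1 of 5 iron regulatory and oxygen-sensing genes were called, beside 12.8% of all genes, and none of 13 haem genes and 8 mitochondrial genes. HP (haptoglobin), which binds free haemoglobin, was -2.36 ± 0.18 in UT and -0.45 ± 0.02 in treated cells, a rise of 1.91 (SE 0.26, q = 0.000637 by limma), called in all 5 fits with an array left out. CP (ceruloplasmin), a ferroxidase that works with ferroportin, was well above background on both treated arrays of 96 h and on none of the UT arrays, at least 1.13-fold higher with treatment (measured means -6.87 and -4.84, q = 0.00303 by limma). Its call was lost without vit C 96 h replicate 2 (q = 0.0518). EPAS1 (HIF-2 alpha) was called higher through a second probe that no UT array had well above background (q = 0.0147 by limma), while its brightest probe gave 0.33 (SE 0.28), and the call was lost without vit C 96 h replicate 1 (q = 0.0915). For CP and EPAS1, the treated arrays of 96 h had more probes well above background overall than the UT ones, as given above, and the part of this was not tested. The median of the uptake list was 0.43, of the export and storage list 0.23 and of the haem list -0.25. Leaving out UT 96 h replicate 3 raised the number of called genes over all lists from 7 to 17. The share of all genes called in that fit was not taken, so nothing is read from the rise.

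HMOX1, which breaks down haem and is not among the called genes of any treatment comparison, was 8.10 and 7.89 (treated and UT means) at 8 h, 7.22 and 7.65 at 24 h, 4.43 and 5.09 at 48 h and 5.03 and 5.49 at 96 h. CD163, the haptoglobin-haemoglobin receptor, had higher treated than UT means at all 4 times by log2 fold changes between 0.39 and 0.66, none called. TFR2, a second transferrin receptor that senses iron, had fold changes between -0.69 and 0.13. IL6 was -6.19 in treated and -4.87 in UT cells at 8 h, with no treated array well above background, -3.50 and -4.04 at 24 h, -0.75 and -0.93 at 48 h, and -2.92 and -2.16 at 96 h, and it was not called at any of them. The iron regulatory protein ACO1 had log2 fold changes between -0.25 and 0.15. Its relative IREB2 had values between -0.48 and -0.07 on its brightest probe, with probes going opposite ways at 8 and 48 h. NCOA4, which delivers ferritin for breakdown, was between -0.52 and 0.35. HFE, TF and SLC39A14 have probes that went opposite ways in each treatment comparison and were left out of the calls.

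**Figure D5:**
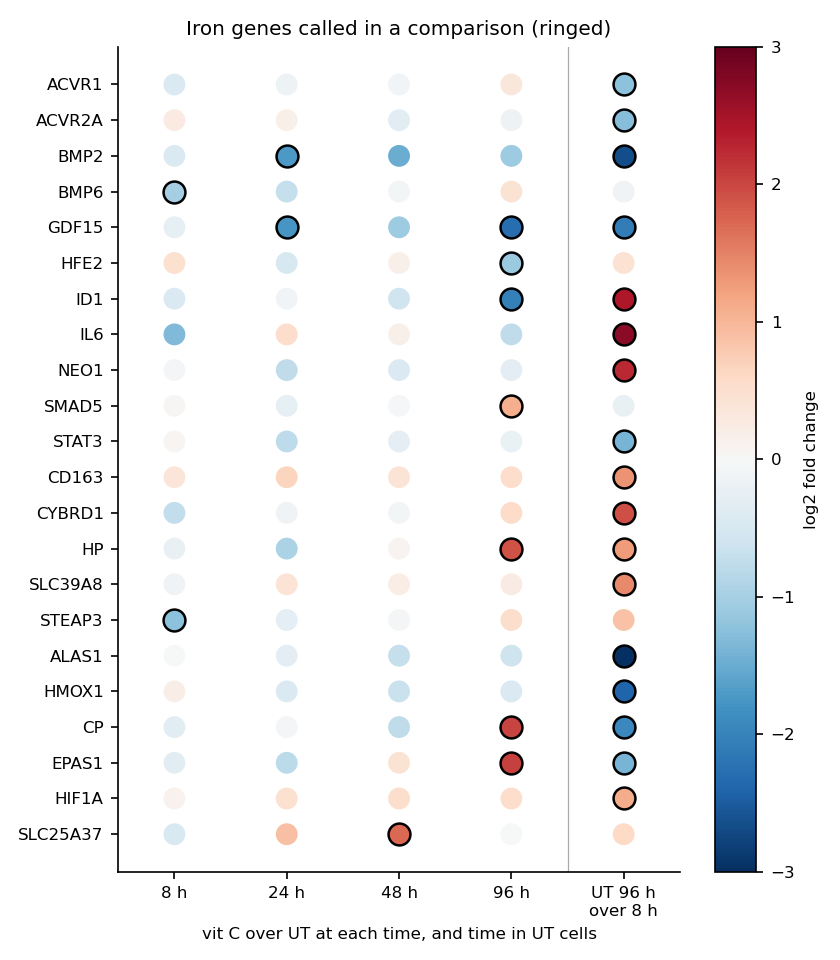
log2 fold change (colour) of the 22 pathway genes called in at least 1 comparison, for vit C over UT at each time and for UT cells at 96 h over 8 h, with a ring where the gene was called. The colour is that of the called probe where there is a call and of the brightest probe elsewhere. Rings are few at 8, 24 and 48 h, and most lie in the column of time in UT cells.

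More pathway genes were called over time in UT cells than for vit C at 8, 24 or 48 h, and so were more of all genes. In UT cells at 96 h against 8 h, 17 of 64 genes tested were called (26.6%, beside 16.1% of all genes), 8 higher and 9 lower. Among the regulators of hepcidin, 8 of 18 were called. ID1 rose by 2.41 (SE 0.20, q = 1.04e-06), IL6 by 2.71 (SE 0.34, q = 5.10e-05, 1 of 2 arrays well above background at 8 h) and NEO1, a hemojuvelin-binding receptor, by 2.27 (SE 0.29, q = 4.93e-05), all by limma. BMP2 fell by 2.66 and GDF15 fell by 2.09, as did the receptors ACVR2A (-1.27) and ACVR1 (-1.24). HAMP was lower over the same interval, as given above, and these comparisons share the UT arrays of 8 and 96 h with those of treatment.

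Of the 14 uptake and scavenging genes, 4 were called higher over time in UT cells and none lower. They were HP (1.27, SE 0.26), CD163 (1.35, SE 0.26), SLC39A8, a zinc and iron importer (1.44, SE 0.34), and CYBRD1, a ferric reductase (1.94 on the called probe, SE 0.23, and 1.02 on the brightest). The median of the list was 0.75, beside 0.02 over all genes. Among 14 haem genes, HMOX1 fell by 2.40 (SE 0.25, q = 8.36e-06 by limma), and ALAS1, the first enzyme of haem synthesis, fell by 2.52 on its brightest probe (SE 0.24, q = 4.38e-06 by limma). HIF1A rose by 1.11 (SE 0.26), CP was at least 1.05-fold lower (measured means -6.87 at 96 h and -4.94 at 8 h), and EPAS1 and STAT3 were called lower through probes that were well above background on 1 of 5 arrays. Of these 17 calls, 12 stood in all 5 fits with an array left out. Those of ACVR1 (-1.58 to -0.91 over the 5 fits), STAT3 (-1.61 to -1.15) and EPAS1 (-1.76 to -1.02) were lost without either UT array of 8 h among others. That of SLC39A8 (1.03 to 1.68) was lost without UT 8 h replicate 2, and that of HIF1A without UT 96 h replicate 3 (0.89). With the slide as a term 10 of the 17 calls stood. Those of ACVR1 (-1.27), ACVR2A (-1.24), SLC39A8 (1.09), CP (-1.48), STAT3 (-1.89), EPAS1 (-1.63) and HIF1A (0.67) did not. STAT3 had no q there, because its probes then opposed each other.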

How the data were processed

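RNA of PMA-differentiated THP-1 cells, UT or treated with vit C, was hybridized by the authors to Agilent one-colour arrays (19 arrays, 4 slides). The deposited scanner files hold spot intensity values on a linear scale from Agilent Feature Extraction 10.5.1.1, per the file headers. A deposited table of log2 values, shifted by the authors to the 75th percentile of each array, equals the log2 processed signal minus a constant per array for single-spot probes, and served as an alternative. Which genome build underlies the array design is not given in the sources used here.

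Control spots were left out, spots of the same probe were averaged, and log2 processed signals were shifted to the 75th percentile of each array. All 8 groups were fitted together with limma 3.58.1 (R 4.3.3). Benjamini-Hochberg adjustment was over the probes of genes whose probes did not oppose each other in that comparison, and over all probes in the F test. A gene was called where q was at most 0.05 and the change reached 1 log2 unit either way, unless its probes opposed each other, and its brightest probe by mean level gave its value. No p-value is given for the 7 genes. The genes and lists were chosen with earlier results of these data known. The text names the 7 genes, every pathway gene called, 15 pathway genes whatever their values (HMOX1, CD163, HFE, TFR2, BMP6, SMAD7, ID1, IL6, TF, CP, ACO1, IREB2, NCOA4, SLC39A14 and STEAP3), and the 5 genes most like HAMP and 2 most like each other gene by Pearson's r. A few items that these rules would name are not reported here. An "at least" fold sets a probe's level against the lowest signals well above background on the other arrays.

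The labels name separate flasks at most, so p-values measure the spread between these samples, and the number of arrays limits the precision. Groups came from the sample titles. Alternatives were normexp background correction (offset 50), quantile normalization, a floor of 20 on signals, the percentile over detected probes, other probe rules, slide as a fixed or random term, the replicate number as a block, a fit of the compared arrays only, the methods' t-test, and each array left out in turn. The random slide term for the 7 genes, the block with the descriptions' numbers, single probes with an array left out and the likeness without UT 96 h replicate 3 were added after seeing the data. Figures were drawn with matplotlib 3.10.9 under Python 3.11.15.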

Additional observations from a re-analysis of the deposited data

Results flagged for a closer look

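HAMP was lower with vit C at 8 h (log2 fold change -1.13), 24 h (-1.03) and 48 h (-1.65) and higher at 96 h (1.64), with every treated array on one side of the UT arrays at each time. The difference between time points was not tested, because HAMP was chosen by these levels.

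Of 73 pathway genes, 5 had effects of vit C on their brightest probe that differed between the 4 times by limma's F test. The share over all 50238 probes was 0.944%, but those include dim probes and further probes of a gene. HP (q = 0.00713) had, in order of time, the log2 fold changes -0.22, -0.94, 0.07 and 1.91. ID1 (q = 0.0152) had -0.45, -0.10, -0.60 and -2.05. STEAP3 (q = 0.0190) had -1.23, -0.30, -0.07 and 0.53. SLC25A37 (q = 0.0280) had -0.48, 0.89, 1.07 and -0.02. CP (q = 0.0331) was well above background on 5 of 19 arrays. Slide differs between the treated arrays of these times, and its part was not tested.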

How the results depend on the processing

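HAMP kept its direction in all 5 comparisons under every alternative run, though not its call at 8, 24 and 48 h as given above, and moved beyond the replicate spread with normexp correction alone, to -0.87 at 24 h, -0.93 at 48 h, 1.22 at 96 h and -2.04 over time in UT cells. With an array left out it was -1.23 to -0.996 at 8 h, -1.10 to -0.97 at 24 h, -1.71 to -1.59 at 48 h, 1.54 to 1.74 at 96 h and -2.63 to -2.44 over time. Normexp moved the median of all genes at 96 h from -0.15 to -0.40 and quantile normalization to -0.04. HAMP relative to that median was 1.79, 1.63 with normexp and 1.66 with quantile normalization. Relative to the median, normexp moved HAMP from -1.08 to -1.07 at 8 h, from -0.90 to -0.64 at 24 h and from -1.63 to -0.87 at 48 h. Over time in UT cells it moved from -2.56 to -2.09.

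The number of pathway genes called (2, 2, 1 and 7 at 8, 24, 48 and 96 h, and 17 over time in UT cells) was less stable. At 8 h it was 1 with normexp, the percentile over detected probes, the mean of a gene's probes, opposing probes kept, slide as a random term, the replicate block and a fit of the compared arrays only. At 24 h it was 1 with slide as a random term. A fit of the compared arrays only called 0 at 24, 48 and 96 h and 7 over time. Slide as a fixed term called 0 at 8, 24 and 48 h and 11 over time, and gave no value at 96 h, where slide and treatment coincide. At 48 h it was 2 with normexp, quantile normalization, the floor of 20 or dim probes left out, and 3 at an unadjusted p under 0.05 by limma or by the methods' t-test. At 96 h it was 4 with normexp or the floor. The methods' t-test called 0 in all 5 comparisons after Benjamini-Hochberg adjustment, and 2, 2, 3, 7 and 16 without it. With an array left out the counts were 0 to 1 at 8, 24 and 48 h, 4 to 17 at 96 h (17 without UT 96 h replicate 3) and 13 to 19 over time. The cause was not tested.

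The replicate numbers did not pair the samples (r of same-numbered deviations from -0.34 to 0.13, 1 of 8 pairs above 0.1). The numbers are those of the titles, while the descriptions number the 48 h samples of both groups 2 and 3, which leaves the pairs within a time as they are. With the replicate block HAMP was -1.18, -0.98, -1.65, 1.69 and -2.59, and 1, 2, 1, 5 and 16 pathway genes were called. With the descriptions' numbers, tried after seeing the data, the counts were 1, 2, 1, 5 and 15. Low signal limits SLC40A1, HFE2 and CP.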
